A study of Mus musculus with 9 samples.

Results

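Platelet-derived growth factor (PDGF) ligands and receptors were followed in sorted mouse bone marrow stroma as leukemia advanced. The set was given as a list of gene names and holds 6 genes, the receptors Pdgfra and Pdgfrb and the ligands Pdgfa, Pdgfb, Pdgfc and Pdgfd, out of 18194 genes measured. They were read by 14 probe sets (groups of array probes against one transcript). Each gene was represented by its brightest probe set over the 9 arrays. That choice used no comparison between groups, but its mean includes the leukemic arrays, so it can favour probe sets high in leukemia. For Pdgfra the chosen one had the largest medium phase minus wild type log2 difference of 3 (5.98 against 3.48 and 3.37). For Pdgfc and Pdgfd another probe set had a larger difference. Both receptors and the ligands Pdgfa, Pdgfc and Pdgfd were higher in the medium phase of leukemia than in wild type, by 2.98-fold to 63.1-fold. In the early phase 1 of the 6 genes passed the test, Pdgfa, which was lower.

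All 9 arrays came from bone marrow of FVB/NJ mice, from which cells lacking the leukocyte antigen CD45.1 and the erythroid antigen Ter119 had been sorted as stroma. Cells from wild type mice made up the group WT (n = 3). Leukemic recipients gave the group E, the early phase with leukemic cells at 1% to 5% of the marrow (n = 3), and the group M, the medium phase with 5% to 50% (n = 3). The study also defined a latent and a late phase, which were not analysed here, and asked how stromal expression changes as leukemia progresses. The leukemia's genotype, the recipients' treatment and age, and whether animals were pooled are not given in the sources used here. The arrays are labelled as biological replicates of a group, and the p-values measure the spread between them.

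PDGF ligands are secreted dimers that bind and pair receptor tyrosine kinases on mesenchymal cells. PDGF-A and PDGF-C act mainly through PDGF receptor alpha, PDGF-B binds both receptor chains, and PDGF-D acts mainly through receptor beta. In bone marrow, receptor alpha marks mesenchymal stromal and progenitor cells and receptor beta marks these and the pericytes around vessels, while PDGF-B is made by endothelial cells and megakaryocytes. PDGF-C and PDGF-D are secreted in a latent form that proteases must cut, whereas PDGF-A and PDGF-B are processed by furin-like convertases inside the cell.

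The labelled cell type was checked against marker lists. Over all genes, 22.2% were called higher and 21.1% lower in M minus WT, and 0.159% and 0.693% in E minus WT. Of the markers of mesenchymal stroma, 15 of 15 were called higher in M than in WT. In E minus WT, 2 of the 15 were called higher and 0 lower, and the higher count ran from 0 to 3 over the alternatives. Their summed signal was 17621 to 20437 in WT, 23462 to 25433 in E and 117952 to 148766 in M. In WT, 5 of them (Prrx1, Prrx2, Ebf3, Fbln1 and Thy1) lay below the arrays' mean median of 5.64, and the collagen gene Col1a2, at 13.62, was the brightest. Those with the smallest p in M minus WT were Cxcl12, the marrow stromal chemokine (log2 8.63 ± 0.11 in WT and 12.79 ± 0.03 in M, SD, n = 3 each), and Col3a1, a fibrillar collagen (10.41 ± 0.15 and 14.62 ± 0.15). The pericyte and smooth muscle list had 8 of 11 genes higher in M, with summed signals of 602 to 635, 491 to 578 and 5726 to 8207 in WT, E and M. The endothelial list had 8 higher and 1 lower of 11 (915 to 1021, 1048 to 1092 and 1915 to 2633). The chondrocyte and osteoblast list had 9 of 9 higher in M and 5 lower in E (22321 to 26048, 13516 to 14019 and 90099 to 97743).

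Markers of leukocytes, macrophages, megakaryocytes and erythroid cells were also present. The shares of all genes called in M minus WT were again 22.2% higher and 21.1% lower. The pan-leukocyte list had 8 higher and 1 lower of 10 genes in M, with summed signals of 6105 to 6594 in WT, 5019 to 5323 in E and 10299 to 17640 in M. The macrophage list had 5 higher and 1 lower of 11 (1199 to 1387, 818 to 941 and 3257 to 3587), and the megakaryocyte list 6 higher and 2 lower of 9 (1722 to 1880, 1922 to 2004 and 2708 to 2798). The erythroid list had 0 higher and 3 lower of 8 (65058 to 73947, 58238 to 62465 and 37837 to 73511), among them the regulator Gata1 (12.09 in WT and 11.23 in M). With arrays centred on the spike-in controls described next, the pan-leukocyte count fell to 3 higher and the megakaryocyte count to 0 higher, and the erythroid count was 6 lower. Of all 18194 genes, 1847 were called higher and 7965 lower in M minus WT under that centring. Of the genes in these lists, 0 read an exact zero on any array. The M arrays also had the brightest spike-in controls, RNAs added before labelling (log2 9.85 ± 0.30 against 8.86 ± 0.16 in WT and 8.80 ± 0.13 in E, SD, n = 3 each), and the highest median probe set (6.26 against 5.64 and 5.50). The 3' minus 5' difference of the Gapdh control probe sets, a sign of RNA quality, was 0.28 ± 0.18 in M, 0.07 ± 0.12 in WT and 0.07 ± 0.02 in E, with M replicates 1 and 2 at 0.43 and 0.34 above all other arrays. The part of these differences in the PDGF results was not tested. In such bulk samples a changed share of a cell type and a changed amount of RNA per cell cannot be told apart. This holds for rises, such as those of the PDGF genes in M, as well as for falls.

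Pdgfra encodes receptor alpha. Its log2 signals were 5.21, 5.68 and 6.08 in WT, 7.04, 6.78 and 6.87 in E, and 11.29, 11.32 and 12.31 in M. The 3 groups did not overlap, E lying between WT and M. M exceeded WT by 5.98 ± 0.28 (log2, SE), or 63.1-fold (95% interval 41.7 to 95.6), with a limma adjusted p of 6.44e-09. Only 24 of the 18194 genes had a larger rise. The WT mean of 5.66 lay near the WT arrays' mean median of 5.64, so the fold starts from a low signal. Over all alternatives the log2 difference between M and WT ran from 4.28 to 6.19. M exceeded E by 4.74 ± 0.28, or 26.8-fold (adjusted p = 3.79e-08). The excess of E over WT was 1.24 ± 0.28 (95% interval 0.64 to 1.84) and did not pass the test (adjusted p = 0.0676), although it did with M replicate 3 left out (1.24, adjusted p = 0.00399). It also passed with the replicate number as a block (adjusted p = 0.0373), with only the 2 groups in the fit (0.0476), with array weights (0.00662), and with arrays centred on their medians (0.0325) or on the spike-in controls (0.0222). Over all alternatives its adjusted p ran from 0.00399 to 0.769.

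The 2 other probe sets of Pdgfra also passed in M minus WT, and their E minus WT differences were near 0. In the order WT, E, M, probe set 1438946_at averaged 5.36 ± 1.09, 5.39 ± 0.40 and 8.84 ± 0.58 (SD over 3 arrays), and 1421916_at averaged 3.75 ± 1.80, 3.78 ± 0.66 and 7.12 ± 0.54. Their M minus WT differences were 3.48 (limma adjusted p = 9.16e-05) and 3.37 (adjusted p = 0.00443), while E minus WT was 0.02 and 0.03. With the 3 probe sets averaged, E minus WT fell to 0.43.

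**Figure D1:**
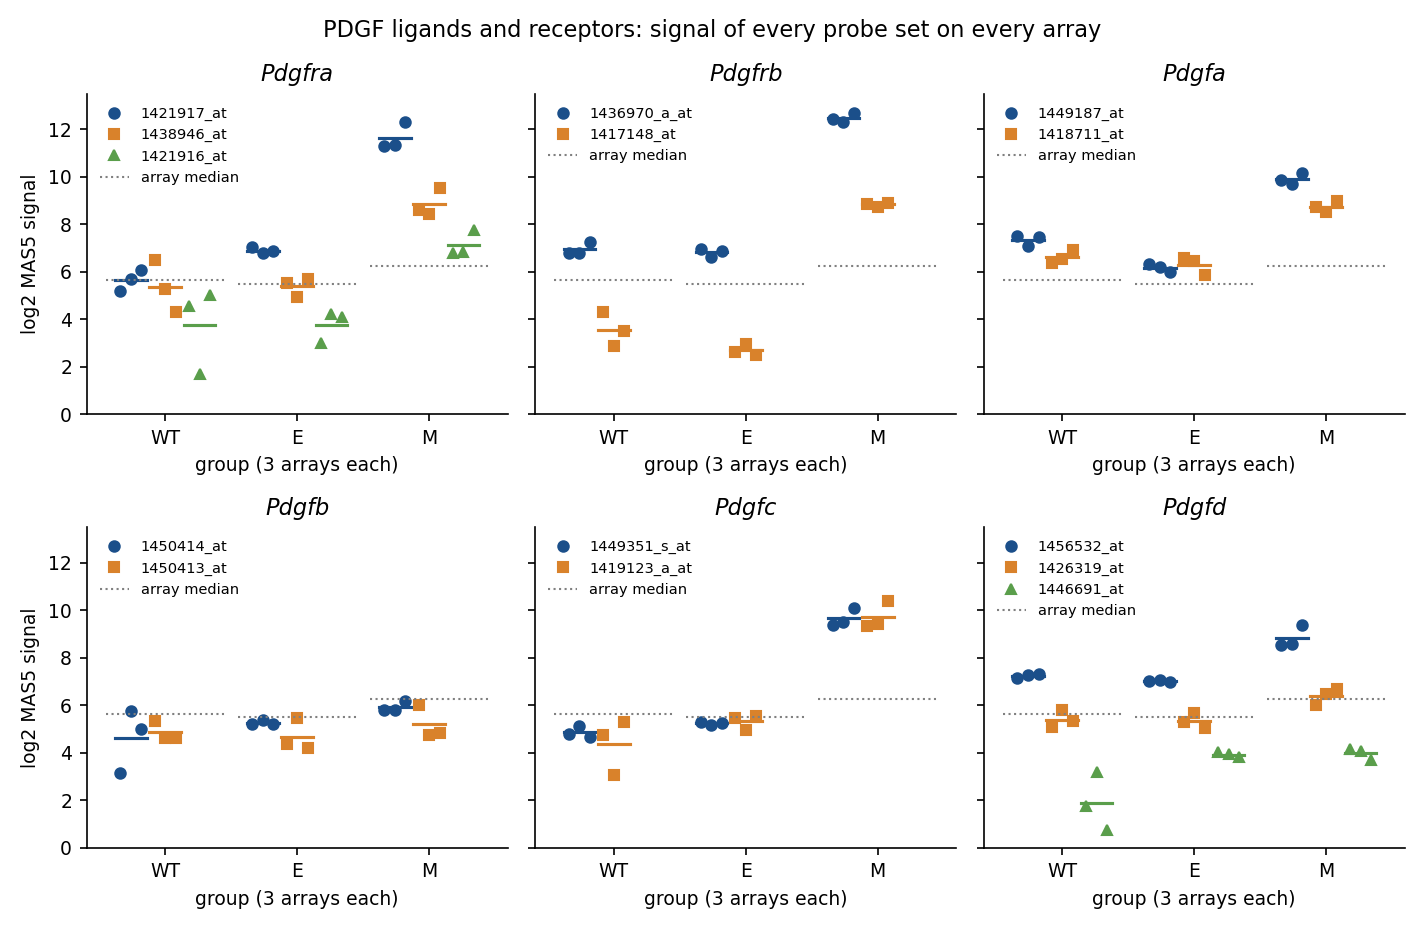
Log2 signal (vertical axis) of every probe set of the 6 genes on the 9 arrays, grouped as WT, E and M (horizontal axis, 3 arrays each); each marker is an array, its shape and colour the probe set (circles for the brightest), short bars are group means and dotted lines the mean of the arrays' medians. For the brightest probe sets the M arrays lie above all WT and E arrays in every panel, by the least for Pdgfb (5.80 in the lowest M array against 5.76 in the highest WT array).

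Pdgfrb encodes receptor beta. It read 6.79, 6.79 and 7.25 in WT, 6.97, 6.62 and 6.85 in E, and 12.41, 12.32 and 12.69 in M. WT and E overlapped, and every M array was far above both. M exceeded WT by 5.53 ± 0.16 (log2, SE), or 46.1-fold (95% interval 36.3 to 58.6; limma adjusted p = 2.03e-10), and exceeded E by 5.65 ± 0.16, or 50.4-fold (adjusted p = 8.90e-11). The E minus WT difference was -0.13 with a 95% interval of -0.47 to 0.22 (adjusted p = 0.829). Its dimmer probe set 1417148_at gave an M minus WT difference of 5.28 (adjusted p = 3.13e-06) and an E minus WT difference of -0.86 (adjusted p = 0.617).

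The difference between the receptors' probe sets within each array was compared across groups. Pdgfra minus Pdgfrb was -1.58, -1.11 and -1.17 in WT, 0.06, 0.15 and 0.01 in E, and -1.12, -0.997 and -0.38 in M (log2). The E arrays overlapped neither of the other groups, and WT and M overlapped. The group means differed by 1.36 for E minus WT, by 0.45 for M minus WT and by -0.91 for M minus E. Two-sided exact permutation tests gave p = 0.1, 0.2 and 0.1, where 0.1 is the smallest p that 3 arrays against 3 allow, and 0.15, 0.2 and 0.15 after adjustment over the 3 comparisons. These values rest on the brightest Pdgfra probe set, the one of 3 with an excess in E over 1 log2 unit.

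**Figure D2:**
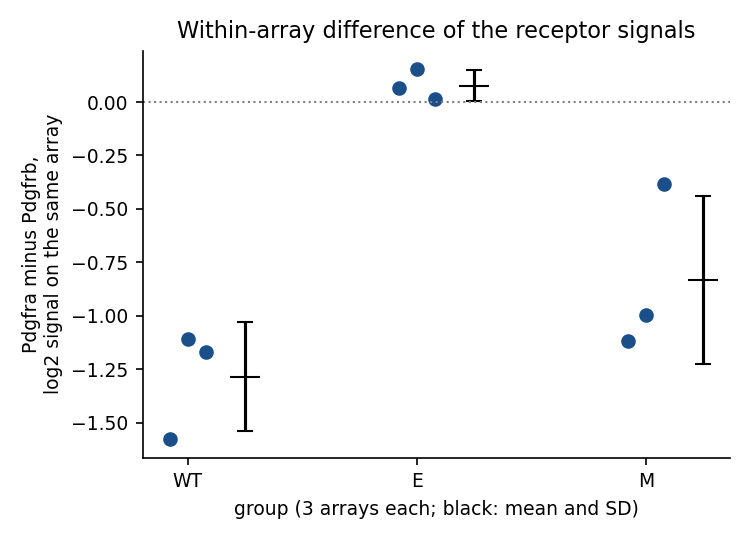
Within-array difference in log2 signal between the brightest probe sets of Pdgfra and Pdgfrb (vertical axis) for WT, E and M (3 arrays each); points are arrays and black bars are group means with their SD. The E arrays sit at 0.01 to 0.15, above all WT and M arrays, and WT and M share part of their range.

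Pdgfa encodes the PDGF-A chain, and it was the 1 gene of the set that passed in E. It read 7.51, 7.09 and 7.46 in WT, 6.32, 6.21 and 5.99 in E, and 9.85, 9.69 and 10.14 in M. Every E array was below every WT array, and every M array was above both groups. E was lower than WT by 2.26-fold (log2 difference -1.18 ± 0.18, SE; limma adjusted p = 0.00664). The second probe set, 1418711_at, did not pass in that comparison (-0.31, adjusted p = 0.730), and without WT replicate 1 the brightest one missed the threshold (-1.10, adjusted p = 0.0520). M exceeded WT by 2.54 ± 0.18, or 5.83-fold (95% interval 4.43 to 7.68; adjusted p = 3.27e-07), and exceeded E by 3.72 ± 0.18, or 13.2-fold (adjusted p = 8.23e-09). The second probe set passed in both, with 2.13 and 2.45.

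Pdgfc encodes PDGF-C, the other ligand of receptor alpha. It read 4.77, 5.14 and 4.65 in WT, 5.30, 5.17 and 5.26 in E, and 9.38, 9.49 and 10.11 in M. The E arrays lay just above the WT arrays without overlap, a gap that did not pass the test (0.39, 95% interval -0.21 to 0.99; limma adjusted p = 0.666). M exceeded WT by 4.81 ± 0.28 (log2, SE), with a 95% interval of 18.5-fold to 42.4-fold ( adjusted p = 4.18e-08), and exceeded E by 4.42 ± 0.28, or 21.4-fold (adjusted p = 7.38e-08). Its second probe set, 1419123_a_at, gave 5.33 for M minus WT (adjusted p = 3.55e-06) and 4.37 for M minus E.

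Pdgfd encodes PDGF-D, a ligand of receptor beta. It read 7.13, 7.29 and 7.34 in WT, 7.02, 7.08 and 6.96 in E, and 8.53, 8.58 and 9.38 in M. E lay just under WT without overlap (-0.23, 95% interval -0.70 to 0.24; limma adjusted p = 0.758), and M lay above both. M exceeded WT by 1.58 ± 0.22 (log2, SE), or 2.98-fold (adjusted p = 7.32e-05), and exceeded E by 1.81 ± 0.22, or 3.50-fold (adjusted p = 2.07e-05). With arrays centred on the spike-in controls, M minus WT was 0.58 and did not pass (adjusted p = 0.105). Of its other probe sets, 1426319_at gave 0.98 for M minus WT (adjusted p = 0.0613) and the very dim 1446691_at gave 2.08 (adjusted p = 0.0534).

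Pdgfb encodes PDGF-B, the ligand of both receptors. It was dim, with a mean over the 9 arrays below the median of all genes' means, as was Pdgfc. It read 3.13, 5.76 and 4.99 in WT, 5.21, 5.36 and 5.21 in E, and 5.80, 5.82 and 6.17 in M. WT replicate 1 was far below the other WT arrays, and the M arrays lay narrowly above all others. M minus WT was 1.30 ± 0.59 (log2, SE; 95% interval 0.02 to 2.59) and did not pass (limma adjusted p = 0.0973), whereas it passed without WT replicate 2 (1.87, adjusted p = 0.0242) and was 0.56 without WT replicate 1. E minus WT was 0.64 (adjusted p = 0.755) and M minus E was 0.67 (adjusted p = 0.402), the latter negative under 3 other scalings of the arrays. The second probe set, 1450413_at, passed in no comparison.

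**Figure D3:**
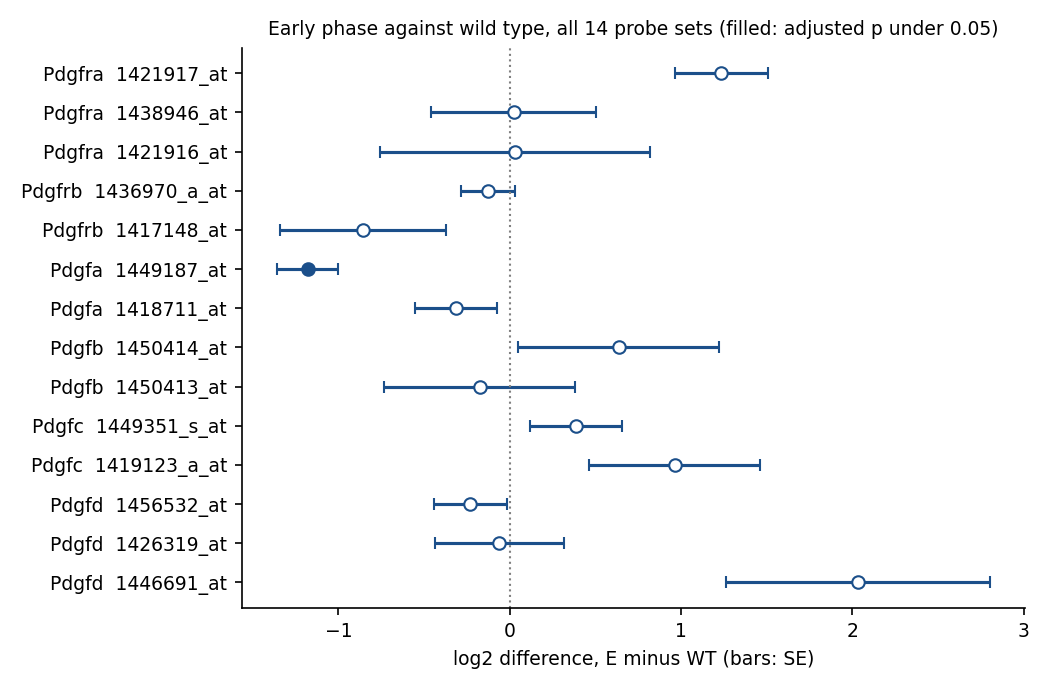
Difference in log2 signal between E and WT (horizontal axis) for each of the 14 probe sets of the 6 genes, with standard errors as bars; 1 probe set, of Pdgfa, passed the test. Probe sets of the same gene differ, as for Pdgfra with 1.24, 0.02 and 0.03.

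Counted over the set, E minus WT called 0 genes higher and 1 lower of 6, where 0.159% and 0.693% of all 18194 genes were called (0.852% in either direction). At an unadjusted limma p under 0.05, E minus WT gave 1 gene higher and 1 lower of 6, and M minus WT 6 higher and 0 lower. In either direction, 1939 of all 18194 genes reached that p in E minus WT, and 8934 in M minus WT. M minus WT called 5 higher and 0 lower, against 22.2% and 21.1% of all genes (43.3% in either direction). M minus E also called 5 higher and 0 lower, against 24.1% and 21.4% (45.5% in either direction); this comparison shares the M arrays with the former. The M arrays lay above all WT arrays for 6 of 6 genes, as they did for 28.3% of all genes, and above all E arrays for 6 of 6, against 30.5%. The E arrays lay above all WT arrays for 2 of 6 genes, Pdgfra and Pdgfc, against 9.45% of all genes, and below them for 2, Pdgfa and Pdgfd, against 11.3%. The median M minus WT difference was 3.68 over the 6 genes and 0.11 over all genes. It was 4.21 over the 15 mesenchymal stromal markers and 3.26 over the 11 pericyte and smooth muscle markers. A limma test over the 3 groups passed for 5 of 6 genes, Pdgfb being the exception (adjusted p = 0.217), against 44.8% of all genes. Of the 14 probe sets, 10 were called higher in M minus WT (35.2% of all probe sets were called, either direction), 11 in M minus E (37.3%) and 1 lower in E minus WT (0.538%).

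The level of all genes in M depends on how the arrays are scaled. The median of all genes in M minus WT was 0.11 with the deposited scaling, -0.18 after quantile normalization, -0.51 with arrays centred on their medians and -0.88 with arrays centred on the spike-in controls. The share of M minus WT calls that were higher was 51.2%, 39.4%, 25.9% and 18.8% in that order, and for M minus E 53.0%, 39.8%, 24.9% and 20.2%. For E minus WT it was 18.7%, 17.0%, 45.6% and 27.3%. The 5 calls among the PDGF genes held for M minus E under all of these, and for M minus WT under all but the spike-in centring, where Pdgfd was lost. M replicate 3 was the highest array for 6 of 6 genes, and the 5 M minus WT calls held without it.

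**Figure D4:**
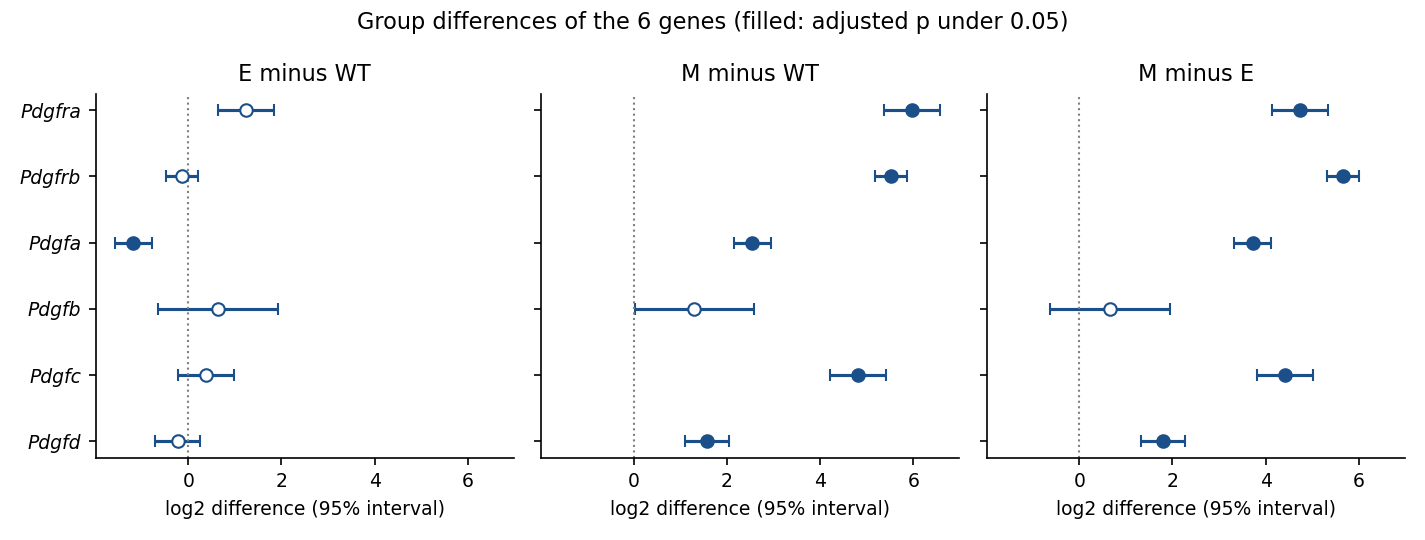
Log2 difference (axis) between groups for each of the 6 genes in E minus WT, M minus WT and M minus E, with 95% intervals as bars and filled circles for genes that passed the test. Both receptors and Pdgfc have M minus WT differences of 4.81 to 5.98, Pdgfa and Pdgfd of 2.54 and 1.58, and E minus WT differences run from -1.18 to 1.24.

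Sequences before the transcription starts of the members that rose in M are shown because these genes moved together; a match to a motif describes the letters and is neither a site nor a cause. They come from RefSeq, build GRCm38.p6, and windows of Pdgfa, Pdgfc, Pdgfd and Pdgfra were used. The sequence of Pdgfrb, which also rose in M, was not analysed here. Motifs were searched on both strands over the 250 bases before each listed start. The 2 Pdgfa windows and the Pdgfra window lay wholly inside the RefSeq spans of their genes. The Pdgfd window did so for 123 bases and the Pdgfc window for 0. For Pdgfc the whole window is printed (chr3:81036166-81036415, plus strand), with a CArG box, the motif known for binding serum response factor, in capitals at 17 to 8 bases before the start.
Pdgfc: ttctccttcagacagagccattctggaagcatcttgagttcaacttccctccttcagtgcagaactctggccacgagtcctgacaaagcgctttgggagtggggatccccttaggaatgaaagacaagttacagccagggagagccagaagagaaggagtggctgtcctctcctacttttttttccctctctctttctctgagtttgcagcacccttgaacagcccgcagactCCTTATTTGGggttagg
The CArG box was found in 1.47% of 32851 such windows. For the others, 30 bases around a match are given. Pdgfa, on the minus strand, holds the GC box GGGCGG before each of its 2 listed starts (chr5:138994324-138994353 and, as its reverse complement, chr5:138995020-138995049, where a second copy follows in lower case). Pdgfd holds TATAAA (chr9:6168314-6168343, plus strand), at 160 to 155 bases before its listed start. Those 30 bases lie before the gene's RefSeq span, which begins at 6168363. Pdgfra holds the E-box CANNTG (chr5:75152057-75152086, plus strand). Capitals mark the matches.
Pdgfa, one start: gggaggggactaGGGCGGgcagtaagcagg
Pdgfa, the other start: gaagcccagcccCCGCCCtccgccccttcc
Pdgfd: ctggccagtttcTATAAAaccctgggagac
Pdgfra: cccaccccacccCATCTGgtttgctccccc
The GC box stood in 32.7% of all windows, TATAAA in 12.4% and the E-box in 66.2%. The letters CCAAT (33.8% of windows) and TGANTCA, the AP-1 site (6.75%), were not found in these windows. 

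Genes for proteins that bind PDGF or its receptors were mostly higher in M. For this and the following lists, the share of all genes called in M minus WT was 22.2% higher and 21.1% lower. In E minus WT it was 0.159% higher and 0.693% lower. Of 10 measured receptor partners and matrix binders, 8 were called higher and 0 lower in M minus WT (median 2.88). Itgav, an integrin chain, rose by 2.95 ± 0.13 (log2, SE) and Nrp1, a co-receptor, by 3.09 ± 0.15, from 7.96 in WT to 11.06 in M. Sdc4, a heparan sulfate proteoglycan, rose by 2.74 and Sparc, a matrix protein that binds PDGF-B, by 1.80 (limma adjusted p of 1.08e-08 or lower for the 4 genes). In E, 0 were called higher and 2 lower, Itgav (-0.67, adjusted p = 0.0363) and Sdc4 (-0.84, adjusted p = 0.00806). The Itgav call was lost with any one WT or E array left out (adjusted p 0.116 to 0.151), and the Sdc4 call without WT replicate 3 or E replicate 3 (0.0541 to 0.0610). Both were also lost with spike-in centring.

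Proteases that act on PDGF precursors, listed with the urokinase receptor Plaur, were mostly higher in M. Of 7 genes measured, 6 were called higher in M minus WT and 0 lower (median 2.90). Plat, tissue plasminogen activator, which cuts PDGF-C, rose from 5.21 ± 0.22 in WT (SD, n = 3) by 4.79 ± 0.34 (log2, SE) in M, or 27.7-fold (limma adjusted p = 3.20e-07). The convertases Pcsk6 and Pcsk5 rose by 2.90 and 3.70, and Plaur by 2.16 (adjusted p of 8.80e-07 or lower). The convertase Furin was called higher (0.58), but lost that call with median or spike-in centring, where its difference went down to -0.41. The protease St14 did not pass in M, and 0 of the 7 passed in E in either direction. At an unadjusted limma p under 0.05, 0 were higher and 1 lower in E, beside 1939 of all 18194 genes in either direction.

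Genes acting at and below the receptors were called in both directions. Of 29 measured genes of proximal signalling, 13 were called higher and 4 lower in M minus WT (median 0.28, beside 22.2% and 21.1% of all genes). With arrays centred on the spike-in controls, 4 were called higher and 19 lower. Of all 18194 genes, 1847 were called higher and 7965 lower under that centring. Socs3, a suppressor of cytokine signalling, rose by 5.06 ± 0.18 (log2, SE; limma adjusted p = 8.77e-10) and the transcription factor Stat3 by 2.16, while the related Stat5a fell by 0.79. The adaptor Crk was called higher (0.75), but lost that call with median or spike-in centring, where its difference went down to -0.24. Of 12 measured kinases and GTPases further down, 2 were called higher, the protein kinases C Prkca (2.46) and Prkcd (0.90), and 4 lower, among them Rac1 (-0.32) and Map2k2 (-0.44), beside 22.2% and 21.1% of all genes. Prkcd lost its call with median or spike-in centring (down to -0.09), and Rac1 turned to 0.29 with its probe sets averaged and was not called. With the spike-in centring the count for this list was 1 higher and 10 lower, beside the same 1847 and 7965 of all genes. Another 8 genes of this list were not analysed here. In E, 0 genes of either list passed in limma, where an unadjusted p under 0.05 was reached by 0 higher and 4 lower of the proximal genes and by 2 higher and 1 lower of the others. Of all 18194 genes, 1939 reached it in E minus WT in either direction.

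Genes that growth factor signals induce, feedback inhibitors among them, were nearly all higher in M. Of 10 feedback inhibitors, 9 were called higher in M minus WT and 0 lower (median 2.31), and those with the smallest p were Errfi1, an inhibitor of receptor tyrosine kinases (3.01 ± 0.09, log2, SE; limma adjusted p = 2.58e-10), the ERK phosphatase Dusp6 (2.27), Spry2 (2.36) and the GTPase activator Rasa2 (1.12, or 0.13 and not called with spike-in centring). Of 20 growth factor response genes, 19 were called higher and 0 lower (median 3.14), and by the same order Egr1 was up by 4.04 ± 0.07 (adjusted p = 2.38e-12), Ier3 by 3.44, Klf4 by 3.69 and Egr3 by 3.95; Srf, serum response factor, did not pass. Many stimuli beside PDGF induce these genes.

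In E, some of these genes were lower. Over all genes, 0.159% were called higher and 0.693% lower in E minus WT. Of the response genes, 4 of 20 were called lower and 0 higher: Fos (-0.94, limma adjusted p = 4.06e-05), Jun (-1.08, adjusted p = 1.19e-05), Egr1 (-0.65, adjusted p = 0.000608) and Klf4 (-0.75, adjusted p = 0.0278). Their count was 8 lower without M replicate 3 and 2 lower with spike-in centring, where Egr1 and Klf4 lost their calls. The Klf4 call was lost without WT replicate 1 or 3 or E replicate 1 or 3 (adjusted p 0.0688 to 0.126). Of the feedback inhibitors, 2 of 10 were called lower, Errfi1 (-0.78, adjusted p = 0.000906) and Dusp6 (-0.88, adjusted p = 0.0365); Dusp6 was lost without any one WT array or without E replicate 1 or 2 (0.136 to 0.172). Both were lost with spike-in centring and without the variance trend.

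**Figure D5:**
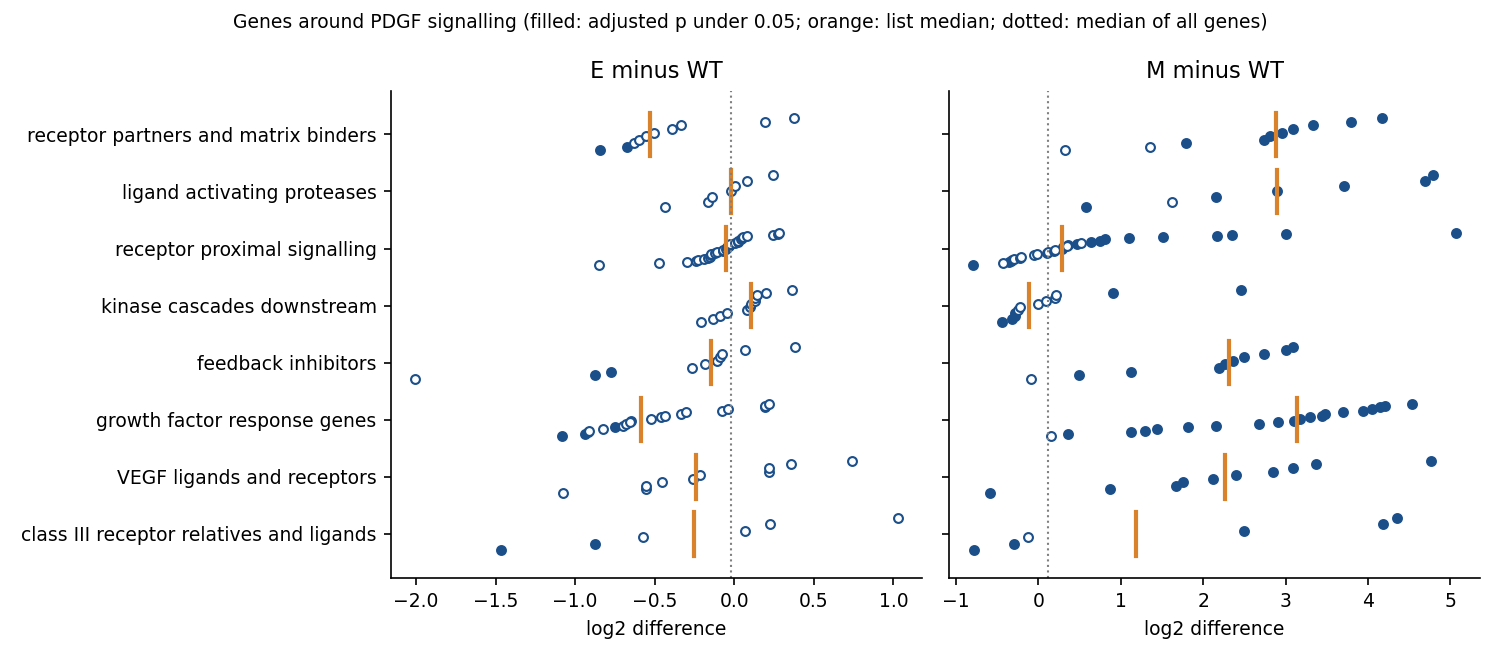
Log2 difference (horizontal axes, on separate scales) of each gene in the 8 pathway lists (rows) in E minus WT and M minus WT; filled circles passed the test, orange bars are list medians and dotted lines the median of all genes. The response genes have medians of -0.59 in E minus WT and 3.14 in M minus WT, and the downstream kinases have 0.10 and -0.12.

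The related receptors of class III (the kinase family of the PDGF receptors) and their ligands were followed with 6 of the 7 genes listed; Flt3l was not analysed here. The ligands Kitl (6.36 ± 0.36 in WT, 5.78 ± 0.16 in E, 10.54 ± 0.20 in M; SD, n = 3 each), Csf1 (5.58 ± 0.44, 5.80 ± 0.22, 9.93 ± 0.11) and Il34 (3.82 ± 1.91, 4.85 ± 0.58, 6.31 ± 0.10) were called higher in M minus WT, by 4.19, 4.35 and 2.49. The Il34 call (limma adjusted p = 0.0209) was lost with quantile normalization, median or spike-in centring and without the trend (adjusted p up to 0.0712). The receptors, found on blood cells, were not called higher: Kit differed by -0.30 (limma adjusted p = 0.0486), Flt3 by -0.78 (adjusted p = 0.0363) and Csf1r by -0.12 (adjusted p = 0.438). The Kit call was lost with any array but WT replicate 2 left out (adjusted p up to 0.202), and the Flt3 call without any one WT array or without M replicate 2 or 3 (up to 0.108). In E, Csf1r (-0.88, adjusted p = 0.00251) and Flt3 (-1.47, adjusted p = 0.0284) were lower, the latter not without any one WT array or E replicate 2 or 3 (0.0823 to 0.136). The Csf1r call was lost with spike-in centring (0.0794), with probe sets averaged (-0.53, adjusted p = 0.249) and without the trend (0.0607). The VEGF family, close relatives of PDGF in structure, had 9 genes higher and 1 lower of 10 in M minus WT. With only genes at or above the median mean signal tested, which leaves out dim genes, 3 were called higher. Kdr, Pgf and Flt4 lost their calls with spike-in centring. Vegfc was up by 4.77, Vegfa by 2.84 and Nrp2 by 2.12, and Vegfb was down (-0.59). In E, 0 of the VEGF genes were called, and 3 were lower at an unadjusted limma p under 0.05. Of all 18194 genes, 1939 reached that p in E minus WT in either direction.

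The genes most like each member were ranked by Pearson r over the 9 arrays, among 12264 genes with a range of at least 1 log2 unit. The 9 points fall into 3 groups with M apart and share the scaling of each array, so r is a description. Col5a2, a fibrillar collagen, was closest to Pdgfra (r = 0.998), followed by the transcription factor Ebf1, Prkcd, Gfra1 and Zfp275. Serping1, the complement C1 inhibitor, was closest to Pdgfrb (r = 0.999), followed by Col8a1, Col3a1, Mylk and Gsn. Sgk1 was closest to Pdgfa (r = 0.998), followed by Fn1, which encodes fibronectin, Col6a3, Ddit4l and Hspb1; these were lowest in E, as Pdgfa was. Duoxa1, Lhfp, Yap1, Insig2 and Sgms2 were closest to Pdgfc (r = 0.999 for Duoxa1), and Gulp1, Pltp, Ctnnal1, Oxr1 and Cnn2 to Pdgfd (r = 0.997 for Gulp1). Pdgfb had no gene above 0.99, where Pdgfrb had 243, Pdgfc 163, Pdgfa 57, Pdgfd 50 and Pdgfra 20. Its closest were 2310069B03Rik (r = 0.965), Fam13a, D630023F18Rik, Kctd16 and Ros1.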

How the data were processed

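RNA of 9 samples (3 groups of 3) was extracted with Trizol, amplified, biotin-labelled with a 3' IVT kit and hybridised to Affymetrix mouse arrays, per the labels' protocols. The authors deposited log2 signals made with MAS5, per the submitters' processing notes; the genome build is not given in the sources used here. MAS5 scales each array to a common level, so a broad shift in RNA amount is not kept. Of 45101 probe sets, 34958 carried 1 gene symbol and were used, 932 carried several and 9211 were not listed. Each gene took its brightest probe set, giving 18194 genes, with no filter on dim genes. Groups were compared with limma 3.58.1 (R 4.3.3; all 9 arrays, intensity trend, no replicate block), and p-values were adjusted by Benjamini-Hochberg over all genes and called under 0.05. The procedure was tested on simulated data with 200 changed genes. In E minus WT it called 40.5% of genes changed by 1 log2 unit, and 58.5% of those changed by 2. Among genes at or above the median signal these shares were 79.4% and 98.0%. A gene not called, above all a dim one, can thus still differ. Summed signals are on the linear scale. The number of arrays limits the precision.

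Genes named are the members, the 4 genes with the smallest p of each list in M minus WT, those of the pathway lists called in E minus WT, all class III relatives measured, and the 5 genes most like each member; marker genes were named in part. Other genes (St14, Srf, Furin, Vegfb, Kdr, Pgf and Flt4) were named after their values were seen. So were the mesenchymal genes with dim or bright signals and the probe sets' values. Members and lists were chosen with earlier results of these data known. Alternatives covered scaling, pseudocounts, a brightness filter, probe set choice, variance model, array weights, the groups in the fit, a replicate block and each array left out. The 0 pairs of identical arrays left every array in use.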

Additional observations from a re-analysis of the deposited data

How the results depend on the processing

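With the settings tried, M minus WT and M minus E kept their call and direction for Pdgfra, Pdgfrb, Pdgfa and Pdgfc, and Pdgfd lost its call in M minus WT with spike-in centring (0.58). Pdgfc and Pdgfb lie below the brightness filter and have no value under it. In E minus WT, Pdgfa lost its call with spike-in centring (-1.12), with probe sets averaged (-0.75) and without the variance trend (-1.18); leaving out arrays gave -1.31 to -1.09. Pdgfra passed in E minus WT with median centring (1.37), spike-in centring (1.29), array weights (1.26), only the 2 groups in the fit (1.24) and the replicate block (1.24, limma adjusted p = 0.0373), and leaving out arrays gave 1.01 to 1.45. Some differences that had not passed turned sign: Pdgfrb in E minus WT with median centring (0.0087) and over the left-out arrays (-0.21 to 0.027), Pdgfd in E minus WT with probe sets averaged (0.58), Pdgfb in E minus WT over the left-out arrays (-0.11 to 1.20), and Pdgfb in M minus E with quantile normalization (-0.076), median centring (-0.10) and spike-in centring (-0.38). Pdgfb in M minus WT ran from 0.56 to 1.87 over the left-out arrays. The cause of these changes was not tested.

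Genes called higher in E minus WT numbered 29, and 18 with quantile normalization, 72 with median centring, 15 without the trend, 108 with array weights, 166 with only the 2 groups and 13 to 187 over the left-out arrays. Genes called lower numbered 126, and 64 with spike-in centring, 70 with probe sets averaged, 42 without the trend, 274 with array weights, 349 with only the 2 groups and 75 to 430 over the left-out arrays. Median centring, spike-in centring and the brightness filter, which tests fewer genes, gave 2440, 1847 and 2306 genes higher in M minus WT in place of 4032, and 2452, 2012 and 2376 in M minus E in place of 4382. The first 2 of these gave 6998 and 7965 lower in M minus WT in place of 3848, and 7388 and 7954 in M minus E in place of 3892.

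Replicate numbers did not pair the arrays: deviations from group means correlated at -0.03 to 0.02 between same-numbered arrays and at -0.03 to 0.05 between others, and 1 of 9 arrays correlated best with its own number in both other groups. The replicate block gave 23 genes higher and 118 lower in E minus WT, and changed no other call among the 6 genes.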
